A study of Mus musculus with 24 samples.

Results

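In a peak table of RNA bound to STAU2, 543 of the 14297 rows with a gene were placed in an intron by the table's own annotation and carried a gene symbol. The table holds 18975 rows in all, with the strands of a merged peak in separate rows, and the other gene rows are mostly called 3′ UTR (6700), Exon (5918) or 5′ UTR (1136). The members were found by the location call and the symbol alone, with no count used. They belong to 445 gene symbols, and 61 genes hold 2 or more of them (159 rows).

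The libraries came from brain cortex of C57BL/6 mouse embryos, taken at E11.5, E13.5, E15.5 or E17.5, with 3 RNA immunoprecipitations at each stage. The antibody was raised against STAU2, and no mutant or treated animals are part of the design. Each stage also has 3 inputs, which were not analysed here, so a change between stages can lie in the amount of an RNA or in its binding. In whole tissue, fewer cells of a type and less RNA per cell cannot be told apart either.

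STAU2 is a Staufen family protein that binds double-stranded RNA and takes part in moving and anchoring messenger RNAs in neurons and in dividing neural progenitors. Introns are cut out of pre-mRNA during splicing, so reads in an intron can come from unspliced RNA, from a transcript the annotation lacks, from a repeated sequence that lies there, or from an RNA of the other strand. The library kit marks the strand of the RNA, and the table counts the strands of a peak apart.

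All 543 rows overlapped their gene on the stated strand in GENCODE vM21 (GRCm38), and 0 of them overlapped an annotated exon of that strand. On the other strand, 336 overlapped an exon of another gene. For 334 of the 543, the same peak has a second row on the opposite strand that the table calls 3′ UTR (205), Exon (116) or 5′ UTR (13) of that other gene. These are called antisense intron rows below, and the row across from them the exonic row. Another 151 intron rows have no row on the opposite strand of their peak and are called single-strand rows. Across from 53 lies a row called intergenic, and across from 5 another intron row.

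Of the antisense peaks, 3 are shown as sequence, because they run from the lowest share that the intron strand took of a peak's counts, 0.302%, up to 38.6%. In each, the exonic gene and the intron lie on the same bases, read from opposite strands, so a read is assigned to one or the other by its strand alone. The sequences are from GENCODE vM21 transcripts with mm10 positions, printed 5′ to 3′ with no base singled out, and 150 bases of the longer peaks are given.

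In chr11:3242427-3242571 the plus strand is an exon of Eif4enif1, which encodes the eIF4E transporter, and the minus strand lies in an intron of Drg1, which encodes a GTP-binding protein. The intron strand held 38.6% of the peak's counts over the 12 libraries (1594 counts, against 2538 on the exonic strand).
Eif4enif1 coding strand: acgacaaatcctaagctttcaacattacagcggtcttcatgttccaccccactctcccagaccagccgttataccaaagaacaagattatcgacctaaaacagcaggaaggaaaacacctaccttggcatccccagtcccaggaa
Drg1 intron strand: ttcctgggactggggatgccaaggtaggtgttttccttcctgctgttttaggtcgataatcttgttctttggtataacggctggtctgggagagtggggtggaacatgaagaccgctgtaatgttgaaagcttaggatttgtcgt
In chr11:24163331-24163480 the plus strand is an exon of Bcl11a, a zinc finger transcription factor of cortical neurons, and the minus strand lies in an intron of the non-coding gene 4930538E20Rik, whose row spans chr11:24163212-24163599. The intron strand held 21.6% (1269 counts, against 4600 on the exonic strand).
Bcl11a coding strand: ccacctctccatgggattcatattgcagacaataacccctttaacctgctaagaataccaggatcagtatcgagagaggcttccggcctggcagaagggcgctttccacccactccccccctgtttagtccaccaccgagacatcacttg
4930538E20Rik intron strand: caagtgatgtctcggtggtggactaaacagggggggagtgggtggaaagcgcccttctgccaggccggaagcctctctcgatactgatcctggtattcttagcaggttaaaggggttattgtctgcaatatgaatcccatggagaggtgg
In chr14:54646452-54646601 the minus strand is an exon of Acin1, which encodes a protein of splicing-dependent complexes, and the plus strand lies in an intron of Gm17606, whose row spans chr14:54646253-54646663. The intron strand held 0.302%, the lowest share of all 334 peaks (78 counts, against 25792 on the exonic strand). This Acin1 row is one of those called 3′ UTR, though the bases printed are coding in an annotated transcript.
Acin1 coding strand: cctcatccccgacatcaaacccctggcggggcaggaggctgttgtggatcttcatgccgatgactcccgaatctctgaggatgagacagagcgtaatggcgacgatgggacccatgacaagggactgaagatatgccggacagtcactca
Gm17606 intron strand: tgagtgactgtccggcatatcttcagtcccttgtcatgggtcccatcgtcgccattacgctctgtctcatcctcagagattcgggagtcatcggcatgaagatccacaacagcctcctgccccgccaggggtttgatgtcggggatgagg

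Gene-row totals ran over 4688215 to 6374892 counts per library. The libraries numbered 2 stood apart at every stage in the share of counts on the intron strand of the antisense peaks, which is given with its values below. Marker genes of other cell types moved with stage. The summed level of 9 meningeal and mesenchymal genes (7 with a row, Lama1 and Pdgfra without one) was 239 to 285, 302 to 322, 31.1 to 40.2 and 3.46 to 4.20 CPM from E11.5 to E17.5. The summed level of 10 erythroid genes, of which 8 have no row, the globins among them, was 28.6 to 33.0 CPM at E11.5 and at most 1.02 CPM later. The summed level of 5 choroid plexus genes (2 with a row, Clic6, Folr1 and Kl without one) was 10.9 to 19.0, 445 to 576, 60.2 to 115 and 1.27 to 3.02 CPM from E11.5 to E17.5. Of 8 genes of endothelium and microglia 2 have a row (Pecam1 and Cx3cr1 are among those without one), and their sum was between 8.27 and 21.1 CPM in every library. Markers of neurons (5 of 7 with a row, Tubb3 and Syt1 without one) summed to 105 to 145, 994 to 1264, 1338 to 2062 and 2160 to 2477 CPM in the same order. Those of cortical progenitors (7 of 7) summed to 508 to 908, 609 to 961, 569 to 764 and 178 to 219 CPM. None of the marker genes has an intron row, and the part of these cells in the changes below was not tested.

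The members were low in level apart from a few. CPM here means counts scaled to a library of 1000000, with the gene-row total adjusted by TMM. The 531 intron rows that are not very high had a median of 3.15 CPM over the libraries, and the gene rows that are not intron rows had a median of 12.99 CPM. Both sets have a median peak width of 345 bases, and members ranged over 145 to 893 bases. Antisense intron rows had a median of 2.52 CPM, single-strand rows 4.07 CPM and rows across from an intergenic row 12.6 CPM. The nearest exon of the own gene lay 3 to 1971115 bases away, with a median of 1872, and 49 members lay within 100 bases of one.

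A set of 12 intron rows stood apart from the rest by count. A row was called very high where it held at least 1% of the gene-row counts of at least 1 library. The lowest of the 12 reached 1.31% (Gphn, which encodes the receptor anchor gephyrin), and the next member below the limit reached 0.573% (Filip1l). Among them are rows in Cmss1, Kcnip1, Camk1d, Spata5, Gm19951, Tlcd4, Cdk8, Il31ra, Gm48099, Kpna1 and Gphn. Of the 12, 5 are single-strand rows, 5 lie across from an intergenic row, 1 across from an intron row and 1 (Kpna1) across from an exonic row, of Gm15564. A list of 10 genes whose introns may carry sequence like ribosomal RNA was drawn up with earlier results of these data known, and 8 of them have an intron row. Of these, Cmss1, Camk1d, Cdk8 and Gphn are among the very high rows, and Filip1l, Jarid2 and Zc3h7a are not.

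The Cmss1 row (chr16:57391299-57391733, minus strand) was the most abundant. It held 1258258, 1285824 and 1288024 counts at E11.5, 559948, 841107 and 841484 at E13.5, 439257, 599518 and 661260 at E15.5, and 584416, 492364 and 450320 at E17.5. Its counts at E11.5 did not overlap those of any later library. The Filip1l row is the plus strand of the same peak and had 3868, 11409 and 3809 counts at E17.5 and 10533, 30798 and 8188 at E11.5. Replicate 2 was the highest at both stages. In unscaled counts the stages overlapped, and in CPM they did not. The log2 change at E17.5 against E11.5 was -2.38 ± 0.34 (SE) for Cmss1, with an edgeR adjusted p of 6.34e-06, and -2.43 ± 0.56 for Filip1l, with an edgeR adjusted p of 0.000938.

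The 12 rows together took 54.9%, 60.2% and 62.7% of the gene-row counts in the E11.5 libraries, 29.7%, 32.2% and 31.0% at E13.5, 21.4%, 27.0% and 25.4% at E15.5, and 27.6%, 26.1% and 24.4% at E17.5. Each E11.5 library was above every later one. The means were 59.3% ± 3.96, 31.0% ± 1.24, 24.6% ± 2.90 and 26.02% ± 1.58 from E11.5 to E17.5 (SD, n = 3 each). The rows were chosen by their counts in these libraries, and a row can reach the limit through the stage where it is high, so the shares are a description with no test.

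**Figure D1:**
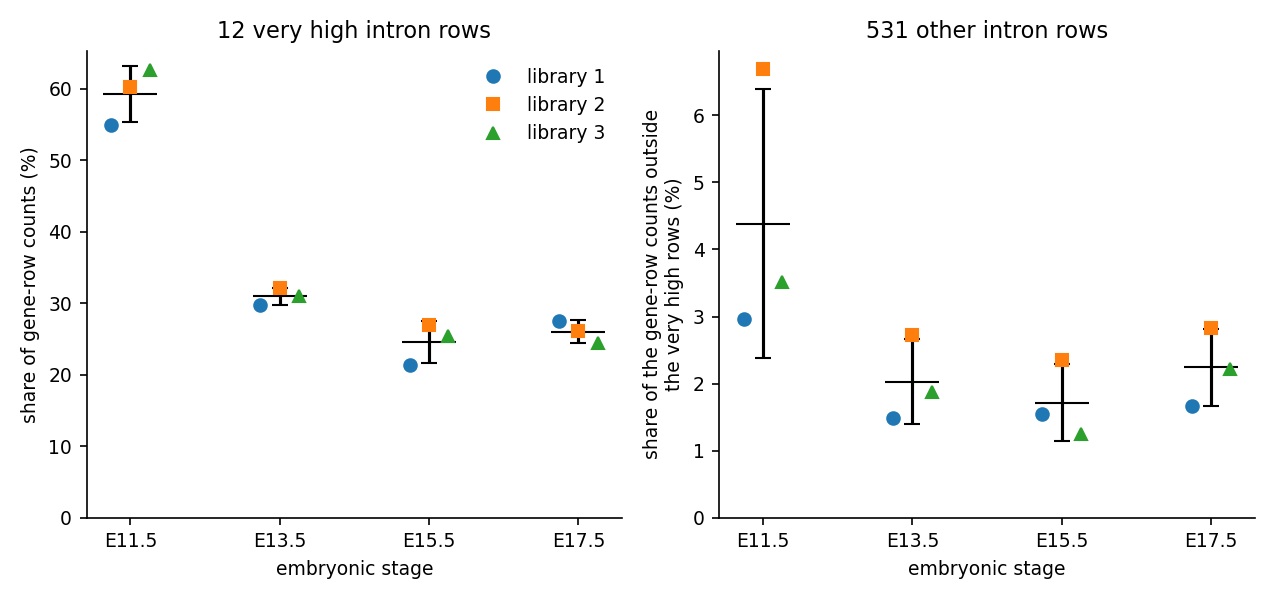
Share of counts per library against stage, for the 12 very high intron rows (percent of all gene-row counts) and for the other 531 intron rows (percent of the gene-row counts outside the 12). Points are libraries and black bars the mean ± SD. The very high rows took 54.9% to 62.7% at E11.5 and 21.4% to 32.2% later; the others took 1.26% to 6.69%, with the highest value in replicate 2 of E11.5.

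The other 531 intron rows held a small share of the counts that the 12 left. It was 2.96%, 6.69% and 3.52% at E11.5, 1.49%, 2.73% and 1.87% at E13.5, 1.54%, 2.35% and 1.26% at E15.5, and 1.67%, 2.83% and 2.22% at E17.5. In every stage the library numbered 2 was the highest. In an exact permutation test over every split of the libraries into sets of 3, the stages differed with p = 0.0168, and the mean at E11.5 was 2.39 percentage points above that of the later libraries. The 531 rows are those left by a cut on counts in these same libraries, so this p-value holds for that cut alone. Where very high began at 0.3%, the difference was 0.888 points with an exact permutation p of 0.0913. With the limit of 1% and without replicate 2 of E11.5, the difference was 1.24 points and the exact permutation p was 0.116. The exact permutation p was also above the threshold without replicate 1 (0.0573) or 3 (0.0586) of E15.5 and without replicate 3 of E17.5 (0.0512). The difference was then 2.33, 2.30 and 2.42 points, close to that with all libraries. Its size fell most without replicate 2 of E11.5, while the call depended on each of these libraries.

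By row, all 12 very high rows were lower at E13.5 than at E11.5 (median log2 change -2.17) and lower at E17.5 than at E11.5 (median -2.53) in edgeR's quasi-likelihood test with Benjamini-Hochberg adjustment over 14106 gene rows, where 7.88% and 26.1% of all gene rows were called lower. Since the counts at E11.5 took part in choosing the 12, nothing is read from this count. Scaled by the gene-row total instead of TMM, 9 of the 12 were called lower in each of these comparisons. Under that scaling the median log2 change of all features was 1.21 at E13.5 and 1.20 at E17.5 against E11.5, where it was 0.05 and 0.02 with TMM. The very high rows are themselves part of that total. No change of the 12 was called at E15.5 against E13.5 or at E17.5 against E15.5. All 8 rows of the list of introns like ribosomal RNA were lower in both comparisons with E11.5 (medians -2.12 and -2.41), against the same shares of all gene rows. That list was drawn up from earlier results of these data and shares rows with the 12, so it is not independent evidence of the direction.

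Below the 12, the Jarid2 row (chr13:44869382-44869822), in an intron of a Polycomb complex gene, had 8172, 29550 and 7570 counts at E11.5 and 3625, 5141 and 5188 at E17.5. Replicate 2 of E11.5 was the highest, and the stages did not overlap. Its log2 change at E17.5 against E11.5 was -2.81 ± 0.53 with an edgeR adjusted p of 0.000151. The Wdr92 row (chr11:17221313-17221670) averaged 156 ± 59.5 CPM at E17.5 and 1279.5 ± 249 CPM at E11.5 (SD, n = 3 each), with a log2 change of -3.04 ± 0.42 and an edgeR adjusted p of 3.90e-06. It was named after its values were seen.

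The Zc3h7a row (chr16:11143929-11144467, minus strand), in an intron of a zinc finger gene, is the most abundant antisense row after Kpna1 and lies over Gm23935, a small gene of the plus strand that GENCODE calls a miRNA. Gm23935 (chr16:11144125-11144181) has copies elsewhere in the genome, and they are printed here because the table cannot show which copy a read came from. Capitals mark bases that differ from Gm23935, with positions counted from its 5′ end.
Gm23935: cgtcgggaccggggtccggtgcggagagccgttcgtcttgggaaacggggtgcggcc
Gm24187: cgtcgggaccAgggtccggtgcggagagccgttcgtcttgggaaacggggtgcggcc
Gm23388: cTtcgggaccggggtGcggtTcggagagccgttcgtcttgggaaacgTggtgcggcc
Gm24270 and Gm24245 have the same 57 bases as Gm23935. Gm24187 differs by G11A, and Gm23388 by G2T, C16G, G21T and G48T. How reads that fit several places were handled is not given in the sources used here, so counts of this row are uncertain. The row had 3250, 11183 and 12284 counts at E17.5 and 9396, 16265 and 13998 at E11.5. In unscaled counts the stages overlapped, and in CPM they did not. Its log2 change was -1.66 ± 0.50 with an edgeR adjusted p of 0.00847, and the adjusted p was 0.0509 without replicate 1 of E17.5 and 0.423 with scaling by the total.

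The antisense intron rows were minor partners in nearly all peaks. Over the 334 peaks, the intron strand took a median of 9.43% of the counts of both strands (quartiles 5.30% and 18.2%). It took under 10% in 176 peaks and exceeded the exonic strand in 7. The median was 10.4% where the exonic row is called 3′ UTR, 7.75% where it is called Exon and 18.9% where it is called 5′ UTR. The highest share, 66.5%, was that of Helb, a DNA helicase gene, across from the 3′ UTR of Grip1 (121 counts, against 61 on the exonic strand). Slc25a53, a mitochondrial carrier gene, held 42.9% across from Zcchc18 (906 counts, against 1207), and Usp50 held 44.6% across from Usp8 (604, against 750). Rufy2, across from Hnrnph3, lay at the low end with 0.619% (141 counts, against 22650).

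The share of the intron strand depended on the library. Over peaks with at least 20 counts in a library, its median was 4.42%, 12.2% and 4.59% at E11.5, 6.64%, 14.8% and 6.00% at E13.5, 8.96%, 13.3% and 5.43% at E15.5, and 5.78%, 15.4% and 7.24% at E17.5. Replicate 2 had the highest median at every stage, and among the other libraries those of E11.5 were the lowest. Counted by peak, replicate 2 was the highest of its stage in 196 of 252, 286 of 325, 254 of 328 and 263 of 310 peaks from E11.5 to E17.5. The labels do not give what sets the libraries numbered 2 apart, so counts of antisense rows called are also given without them.

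**Figure D2:**
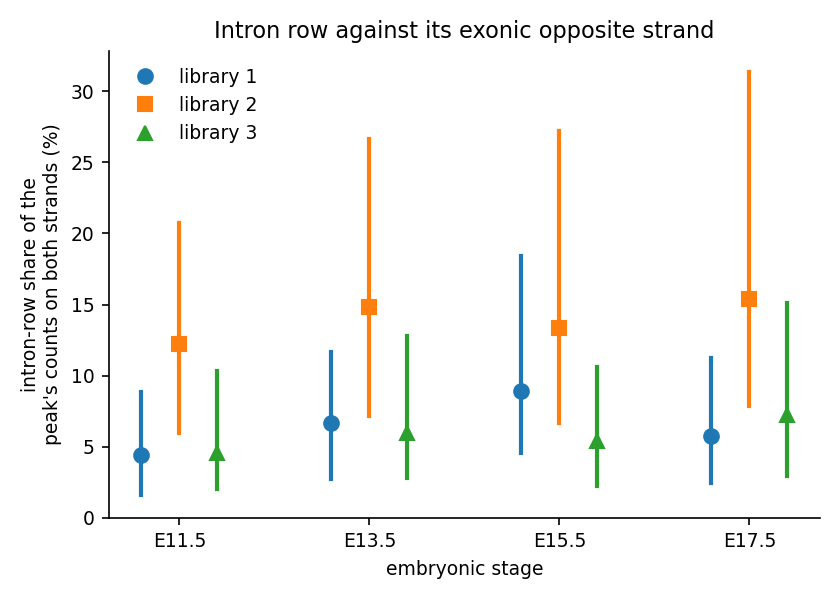
Share of the intron strand in the counts of both strands of an antisense peak (percent), for each library, by stage. Points are medians over peaks with at least 20 counts in the library and bars span the quartiles. Replicate 2 has the highest median at each stage, 12.2% to 15.4%, and the other libraries have 4.42% to 8.96%.

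Where both strands of a peak could be tested, they moved together. Among 270 such peaks, the intron and exonic rows had the same sign of change in 207 at E13.5 against E11.5, 194 at E15.5 against E13.5, 211 at E17.5 against E15.5 and 222 at E17.5 against E11.5. Across peaks, Pearson's r between the log2 changes of the strands was 0.731, 0.595, 0.793 and 0.826 in that order, and Spearman's rho 0.736, 0.581, 0.779 and 0.844. These describe peaks that share the same 12 libraries and the same scaling, and peaks are not replicates. At E17.5 against E11.5 the intron row was called in 96 of the 270 peaks, where 51.9% of all gene rows were called. In 95 of those the exonic row had the same sign, and in 82 it was itself called the same way.

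The test of the strand difference itself, edgeR's test of a row against the opposite row of its peak, called 0 of the 270 intron rows in each of the 4 comparisons. At an unadjusted p under 0.05 it had 5, 2, 3 and 14 intron rows, from E13.5 against E11.5 to E17.5 against E11.5. Over all 1342 rows with an opposite row, the share called was 0.149%, 0%, 0% and 0.745%. The median of the intron minus the exonic log2 change was 0.29, 0.00, 0.12 and 0.50, and for E17.5 against E11.5 the quartiles were -0.14 and 1.12. A missing call does not show that the strands changed alike.

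**Figure D3:**
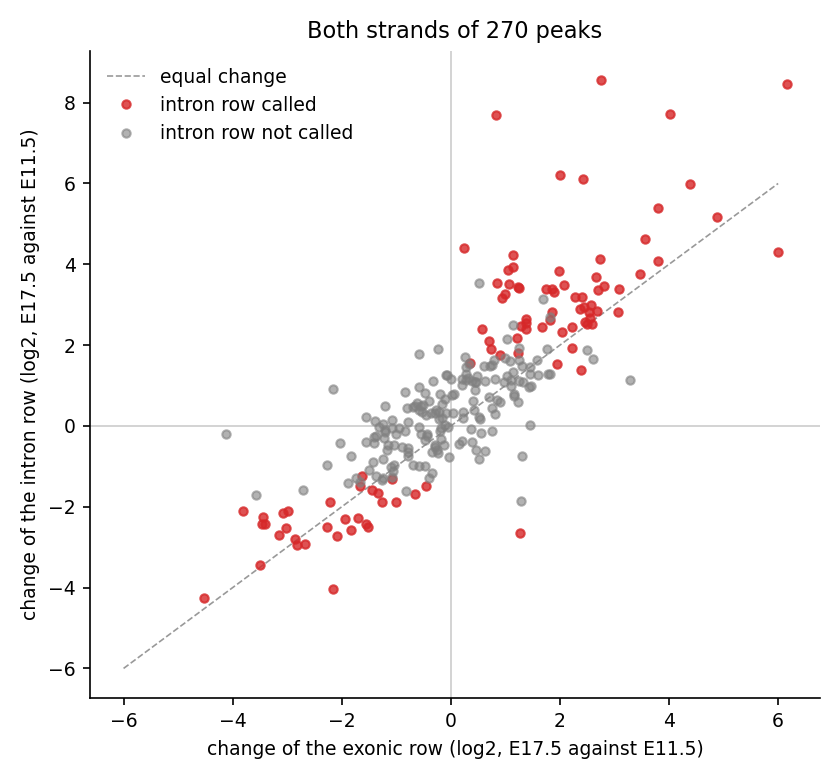
Log2 change at E17.5 against E11.5 of the exonic row (x axis) and of the intron row across from it (y axis) for 270 peaks in which both rows were tested. Each point is a peak and the diagonal marks equal change. In 222 peaks both rows lie on the same side of 0.

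Among the largest rises of antisense rows were those in Nr1d1, Evc and Slc25a53. The Nr1d1 row (chr11:98768568-98769037, minus strand) lies in the gene of a circadian nuclear receptor and across from Thra, the gene of the thyroid hormone receptor alpha. It had 12.4, 10.2 and 2.25 CPM at E11.5, 18.6, 53.8 and 12.7 at E13.5, 35.6, 57.2 and 23.4 at E15.5, and 76.7, 241 and 111 at E17.5. The E17.5 libraries lay above all others. At E17.5 against E11.5 its log2 change was 4.09 ± 0.62 (edgeR adjusted p = 1.13e-05), and that of the Thra row was 3.80 ± 0.37 (edgeR adjusted p = 3.96e-08).

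The Evc row (chr5:37291264-37291648, minus strand), in a gene of the primary cilium, lies across from Crmp1, which encodes a collapsin response mediator protein of growing axons. It had 3.24, 15.9 and 9.02 CPM at E11.5, 15.4, 46.0 and 46.1 at E13.5, 56.8, 44.4 and 15.7 at E15.5, and 144, 431 and 113 at E17.5. The intermediate stages overlapped each other, and the E17.5 libraries lay above them. The log2 change at E17.5 against E11.5 was 4.62 ± 0.65 (edgeR adjusted p = 4.56e-06) for Evc and 3.56 ± 0.40 (edgeR adjusted p = 2.43e-07) for Crmp1. At E17.5 against E15.5 the Evc row rose by a log2 change of 2.56 ± 0.58 (edgeR adjusted p = 0.00481).

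The Slc25a53 row (chrX:136996030-136996352, minus strand) had 24.7, 61.5 and 19.0 CPM at E17.5 and 0.295, 1.14 and 1.13 CPM at E11.5. Its log2 change was 5.39 ± 0.73 (edgeR adjusted p = 2.86e-06), and the Zcchc18 row across from it changed by 3.80 ± 0.46. The rule that named the Slc25a53 row required that its stages not overlap. The 4930538E20Rik row of the printed Bcl11a sequence had 1.77, 5.31 and 1.13 CPM at E11.5, 7.65, 31.7 and 13.04 at E13.5, 14.0, 25.8 and 11.2 at E15.5, and 21.8, 45.8 and 13.2 at E17.5. It was lowest at E11.5, and the later stages overlapped. At E17.5 against E11.5 it changed by 3.31 ± 0.62 (edgeR adjusted p = 0.000134) and the Bcl11a row by 1.90 ± 0.39. This row was chosen as a printed example after its values were seen.

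The other printed peaks changed less. The Drg1 row had 16.6, 19.2 and 12.4 CPM at E17.5 and 27.1, 53.1 and 9.77 CPM at E11.5, with a log2 change of -0.90 ± 0.55 (edgeR adjusted p = 0.177). The Eif4enif1 row across from it fell, with -1.43 ± 0.46 (edgeR adjusted p = 0.0127). The Gm17606 row across from Acin1 had 1.18, 3.80 and 3.77 CPM at E17.5 and 1.77, 2.28 and 1.50 CPM at E11.5, and its change of 0.65 was not called (edgeR adjusted p = 0.435). The stages of both intron rows overlapped.

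Some antisense rows were nearly absent at E11.5, so their folds are given from counts. The Galnt2l row across from Cbfa2t3, a transcriptional corepressor gene, had 86 counts at E17.5 and 1 at E11.5, a ratio of 41.9 after scaling (95% interval 7.32 to 1673, counting error only). The row of Dnase2a across from Mast1 had 47 counts at E17.5 and 1 at E11.5, a ratio of 22.9 (3.91 to 923), and the Mast1 row rose by a log2 change of 6.01 ± 0.64. The row of Syt2, a synaptotagmin gene, across from Ppp1r12b had 88 counts at E17.5 and 3 at E11.5, a ratio of 14.3 (4.73 to 70.6). The rule that named these rows required that the libraries of the stages not overlap, which held for 57% of all gene rows tested. The Zeb2 row across from Zeb2os had 52 counts at E17.5 and 1 at E11.5, a ratio of 25.3 (4.35 to 1019), while the Zeb2os row had a log2 change of 0.24 ± 0.39 that was not called (edgeR adjusted p = 0.623). Zeb2 encodes a transcription factor of cortical neurons, and the test of the difference between its strands made no call.

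Several antisense rows share a host gene. Galnt2l holds 11 members over an annotated gene of 4434882 bases, each 1048273 to 1971115 bases from an own exon, and 9 of them lie across from exonic rows of Aprt, Cbfa2t3, Mthfsd, Slc7a5, Vps9d1 or Zcchc14. Fgfr2, a growth factor receptor gene, holds 9 over 2960900 bases, 375367 to 1304681 bases from an own exon, and 7 lie across from Bub3, Lhpp, Plekha1, Pstk or Tacc2. Shorter hosts hold several too. Gm19710 holds 7 over 22686 bases, 60 to 5840 bases from an own exon and all across from Ubap2l, and Drg1 holds 5 over 79056 bases, all across from Eif4enif1. The log2 changes at E17.5 against E11.5 ran over -2.29 to 5.17 in Galnt2l, -1.36 to 3.51 in Fgfr2, -1.28 to 0.18 in Gm19710 and -0.90 to -0.03 in the 4 tested rows of Drg1. The 4 rows of Atp5o, all across from the endocytic scaffold gene Itsn1, ran over 1.46 to 3.26. Of 45 genes with at least 2 tested members of any kind, single-strand rows included, 34 had all of them on the same side of 0. This share was not worked out for other gene rows, so nothing is read from it.

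Over the steps between stages, the kinds of intron rows had unlike counts. Of the 543 members, 467 passed the filter on low counts and were tested, and 76 did not. At E13.5 against E11.5, 22 were higher and 85 lower, together 22.9% of those tested, where 17.2% of all gene rows were called (9.36% higher and 7.88% lower). Among antisense rows outside the very high ones, 16 were higher and 6 lower of 276 (median log2 change 0.28). This direction rests on single libraries: the antisense rows had 6 higher and 16 lower (median -0.39) without replicate 2 of E13.5, 7 and 8 without replicate 1 of E11.5, and 4 and 6 without replicate 3 of E11.5. Without all 4 libraries numbered 2 they had 22 higher and 13 lower (median 0.19). Among single-strand rows, 4 were higher and 56 lower of 132 (median -1.12), and among rows across from an intergenic row 2 were higher and 10 lower of 43 (median -0.80). The median over all gene rows was 0.05.

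The scale bears on these directions. With scaling by the gene-row total, the same comparison gave 154 members higher and 33 lower. Single-strand rows then had 25 higher and 22 lower with a median of 0.02, and antisense rows 114 higher and 1 lower with a median of 1.45, where the median of all features was 1.21. With the total taken without the very high rows, there were 48 higher and 63 lower, and single-strand rows had 8 higher and 40 lower. The share of all gene rows called was not worked out under these other scalings, so the counts do not set intron rows apart. Under each of the 3 scalings the median of the single-strand rows lay below, and that of the antisense rows above, the median of all features. Rows across from an intergenic row had 14 higher and 0 lower (median 0.40) with the gene-row total, 4 lower without replicate 2 of E11.5 and 5 lower without replicate 1 of E13.5. Without replicate 1 of E13.5, single-strand rows had 35 lower.

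Between E13.5 and E15.5 little was called. At E15.5 against E13.5, 0 members were higher and 3 lower, where 0.319% of all gene rows were called (0.0425% higher and 0.276% lower). All 3 are single-strand rows, and without the 4 libraries numbered 2 the antisense rows had 2 higher and 0 lower. The one named by rule lies in Rad51b, a homologous recombination gene, and its 4.28, 4.11 and 8.46 CPM at E15.5 lay below its 18.5, 29.5 and 19.3 CPM at E13.5. Its call (edgeR adjusted p = 0.0292) was lost when any 1 of 5 of the 6 libraries was left out, with adjusted p of 0.0569, 0.139 and 0.0740 without replicates 1, 2 and 3 of E13.5 and 0.253 and 0.189 without replicates 1 and 2 of E15.5. The count of 3 was 0 or 1 without any of these 6 libraries.

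At E17.5 against E15.5, 23 members were higher and 21 lower, where 13.1% of all gene rows were called (5.89% higher and 7.17% lower). Antisense rows had 10 higher and 2 lower, single-strand rows 7 higher and 16 lower, and rows across from an intergenic row 6 higher and 3 lower. The antisense direction again rests on single libraries, with 1 higher and 8 lower (median -0.47) without replicate 2 of E17.5, 1 and 3 without replicate 3 of E15.5, and 13 and 10 without the 4 libraries numbered 2. Without replicate 1 or 3 of E17.5 or replicate 1 of E15.5, single-strand rows had 7, 6 and 10 lower. The rows across from an intergenic row had 3 higher without replicate 1 or 3 of E15.5 and 2 higher without replicate 3 of E17.5. The sum of 44 was 26 without replicate 1 of E15.5, 27 without replicate 1 of E17.5 and 22 without replicate 3 of E17.5.

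Over the whole span, E17.5 against E11.5, 82 members were higher and 148 lower, where 51.9% of all gene rows were called (25.9% higher and 26.1% lower). Antisense rows had 64 higher and 32 lower of 276 (median 0.58). Single-strand rows had 7 higher and 87 lower of 132 (median -1.95), and rows across from an intergenic row 10 higher and 16 lower of 43 (median -0.56). The median over all gene rows was 0.02. With scaling by the gene-row total the members had 193 higher and 76 lower. Single-strand rows then had 27 higher and 52 lower (median -0.78) and antisense rows 147 higher and 9 lower (median 1.73). Rows across from an intergenic row had 17 higher and 5 lower (median 0.65). The median of all features was then 1.20, and the share of them called was not worked out.

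The antisense counts moved with the libraries numbered 2. Without replicate 2 of E17.5 they were 40 higher and 48 lower, and without replicate 2 of E11.5 they were 78 higher and 14 lower. Without all 4 libraries numbered 2 they were 58 higher and 29 lower, and the single-strand rows were then 10 higher and 81 lower. By the F test over the 4 stages, 217 of the 467 tested members changed (46.5%), where 46.6% of all gene rows did. The stage with the highest mean was E11.5 for 128 of them, E13.5 for 12, E15.5 for 10 and E17.5 for 67. Single-strand rows supplied 83 of the 128, and antisense rows 47 of the 67. The very high rows, chosen partly through their counts at E11.5, supplied 12 of the 128. This split was not made over all gene rows, so it does not set intron rows apart.

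**Figure D4:**
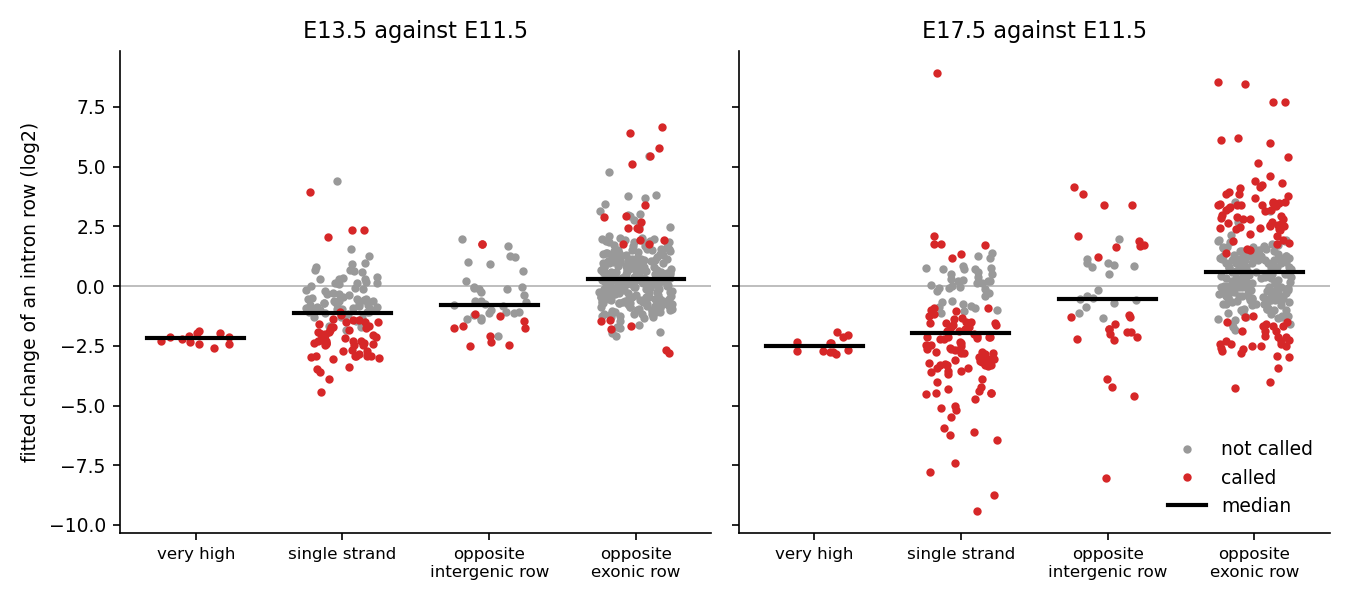
Fitted log2 change of each tested intron row at E13.5 against E11.5 and at E17.5 against E11.5, by kind of row, with TMM scaling. Points are rows, red where called, and black lines are medians; antisense rows are those drawn as opposite an exonic row. Single-strand rows have medians of -1.12 and -1.95, antisense rows of 0.28 and 0.58 (-0.39 without replicate 2 of E13.5 and -0.09 without replicate 2 of E17.5), and the very high rows of -2.17 and -2.53.

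Most single-strand rows had a lower change than the exonic rows of the same gene. For 79 tested single-strand rows the own gene has at least 1 tested row outside introns. At E17.5 against E11.5 the median log2 change was -2.16 for the intron rows and -0.00 for the median exonic row of their genes, and the intron row lay below in 63 of 79. At E13.5 against E11.5 the medians were -1.22 and -0.15, and the intron row lay below in 62. Of the 51 intron rows called lower at E17.5, 32 had exonic rows with a negative median change. The 5 called higher all had exonic rows with a positive one. Across these rows Pearson's r between the intron and exonic changes was 0.338 and Spearman's rho 0.324, over rows that share the 12 libraries.

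Single-strand rows were called lower at every distance from the own exon. At E17.5 against E11.5, single-strand rows up to 500 bases from an own exon had 2 higher and 25 lower of 43 tested (median -1.51). Those beyond 500 and up to 2000 bases had 3 higher and 30 lower of 42 (median -2.13), and those beyond 2000 bases 2 higher and 32 lower of 47 (median -2.11). In this comparison 25.9% of all gene rows were called higher and 26.1% lower. The bins were not compared by a test.

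A test of each row against the other rows of its gene asked which intron rows left their gene's course. At E13.5 against E11.5 it called 11 of 262 intron rows, 2 higher and 9 lower, where 0.321% of all rows tested were called. At E17.5 against E11.5 it called 33, 9 higher and 24 lower, where 1.47% were called. Of these 33, single-strand rows had 1 higher and 21 lower of 93, and antisense rows 7 higher and 2 lower of 142. The 11 became 6 without replicate 3 of E11.5 or replicate 1 of E13.5 and 7 without replicate 3 of E13.5.

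The Crebbp row (chr16:4165973-4166117) lies in the gene of the histone acetyltransferase CBP. It had 8.84, 5.31 and 12.4 CPM at E11.5, 2.64, 1.88 and 0.511 at E13.5, 0.612, 0.548 and 0.668 at E15.5, and 0.336, 0.723 and 0.314 at E17.5. It was highest in the libraries of E11.5. The other 7 rows of Crebbp summed to 358 ± 47.6 CPM at E17.5 and 162 ± 14.8 CPM at E11.5 (SD, n = 3 each). The intron row changed by -4.23 ± 0.66 on the log2 scale (edgeR adjusted p = 1.58e-05). Its difference from the change of the whole gene, this row included, was -5.30 (edgeR adjusted p = 1.19e-08).

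The Zswim8 row (chr14:20718019-20718329), 27 bases from an own exon, lies in the gene of a ubiquitin ligase subunit that acts in microRNA decay. It had 7.66, 5.31 and 4.13 CPM at E11.5 and between 0 and 1.16 CPM in every later library. Over the 3 libraries it had 1 count at E17.5 and 51 at E11.5, so that it was lower by a ratio of 105 (95% interval 18.0 to 4217, counting error only). The other row of Zswim8 moved the other way, with 33.9 ± 4.30 CPM at E17.5 and 3.67 ± 0.221 CPM at E11.5 (SD, n = 3 each). The difference between the rows was called with an edgeR adjusted p of 1.14e-08.

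The Nfib row (chr4:82308909-82309225), in the gene of a transcription factor of cortical progenitors and neurons, was the only member among 62 progenitor and cell cycle genes. It had 0.884, 8.73 and 4.13 CPM at E11.5, 2.09, 4.19 and 2.43 at E13.5, 1.22, 2.74 and 0.668 at E15.5, and 0, 0.543 and 0.314 at E17.5. Stages before E17.5 overlapped. The other 5 rows of Nfib summed to 134 ± 36.2, 1566 ± 159, 1503 ± 475 and 773 ± 72.6 CPM from E11.5 to E17.5. The intron row was called lower at E17.5 than at E11.5 (edgeR adjusted p = 0.000844) and lower against its gene's other rows (edgeR adjusted p = 1.77e-08).

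The Dpysl2 row (chr14:66830891-66831201), in a gene of axon growth, averaged 4.28 ± 0.631 CPM at E17.5 and 33.5 ± 24.4 CPM at E11.5, and its gene's other row 88.5 ± 24.6 CPM at E17.5 and 31.2 ± 13.8 CPM at E11.5 (SD, n = 3 each). The difference between these rows was called. Both rows in Gprasp1, which encodes a receptor sorting protein, fell by log2 changes of 3.56 ± 0.57 and 3.05 ± 0.47 at E17.5 against E11.5, and both were called lower against the gene's other rows. These rows share a gene and are not independent.

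Several single-strand rows reached zero or nearly so by E17.5. The Lrrc1 row (chr9:77445487-77445803), in the gene of a leucine-rich repeat scaffold protein, had 10.3, 18.2 and 13.53 CPM at E11.5, 1.39, 2.46 and 1.66 at E13.5, 1.35, 0.137 and 0.557 at E15.5, and 0 in all E17.5 libraries. Against a floor of 3 counts over the stage it was at least 81.5-fold lower at E17.5 than at E11.5 (edgeR adjusted p = 2.33e-07). The Zfp423 row (chr8:87678089-87678399), in a zinc finger transcription factor gene, had 0 counts at E17.5 and 74 at E11.5 and was at least 50.7-fold lower. The row of Phf21a, a histone reader gene, had 0 counts at E17.5 and 40 at E11.5 and was at least 27.4-fold lower. The rows of Ankrd33b (1 count at E17.5 and 112 at E11.5) and of the kinase gene Stk39 (1 and 58) were lower by ratios of 230 (40.4 to 9166) and 119 (20.6 to 4785).

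The Rmst row (chr10:92072570-92073246, minus strand) was the only member among 40 host genes of small or long non-coding RNAs. Rmst is a long non-coding RNA of neural progenitors, and its row lies across from an intergenic row. It had 27.7, 15.9 and 15.8 CPM at E11.5, 17.8, 28.2 and 10.4 at E13.5, 8.08, 13.6 and 16.1 at E15.5, and 0, 0.181 and 0 at E17.5. The first 3 stages overlapped, and the fall lay at the last step. Over a stage it had 1 count at E17.5 and 310 at E15.5, a ratio of 226 (95% interval 40.3 to 8968, counting error only), with an edgeR adjusted p of 3.23e-06.

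The Rad51b row had a lower mean at each later stage. It had 132, 77.8 and 62.7 CPM at E11.5 and 1.85, 1.99 and 3.93 CPM at E17.5, below those of E13.5 and E15.5 given above. Its log2 change at E17.5 against E11.5 was -5.12 ± 0.48 (edgeR adjusted p = 2.54e-08).

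Outside the antisense and very high rows, 18 of 179 tested rows were higher at E17.5 than at E11.5 and 104 lower. Of all gene rows, 25.9% were called higher and 26.1% lower. The Mrps28 row (chr3:8862852-8863257), in a gene of the mitochondrial ribosome, had 3.24, 0.759 and 1.88 CPM at E11.5, 37.0, 29.9 and 26.8 at E13.5, 20.9, 11.52 and 27.5 at E15.5, and 6.88, 3.80 and 10.1 at E17.5. It was highest at E13.5 and E15.5. At E13.5 against E11.5 its log2 change was 3.93 ± 0.51 (edgeR adjusted p = 1.35e-05). The other 2 rows of Mrps28 summed to 20.8 ± 9.30 CPM at E13.5 and 15.1 ± 3.41 CPM at E11.5.

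The Pde4dip row (chr3:97729780-97730078), in the gene of the centrosome and Golgi protein myomegalin, had 0 in all E11.5 libraries, 0.278, 0.723 and 0.256 CPM at E13.5, 1.35, 1.23 and 1.78 at E15.5, and 14.3, 8.86 and 7.07 at E17.5. It had 179 counts at E17.5 and was at least 29.1-fold higher there than at E11.5. At E17.5 against E15.5 its log2 change was 2.77 ± 0.50 (edgeR adjusted p = 0.000936).

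The Sgf29 row (chr7:126662147-126662457), in a gene of histone acetylation complexes, fell and then rose. It had 16.2, 9.11 and 22.5 CPM at E11.5, 2.64, 2.89 and 1.79 at E13.5, 1.10, 1.23 and 0.557 at E15.5, and 2.85, 6.69 and 7.23 at E17.5. Its log2 changes were -2.70 ± 0.46 at E13.5 against E11.5 (edgeR adjusted p = 0.000298) and 2.53 ± 0.50 at E17.5 against E15.5 (edgeR adjusted p = 0.00187). The Prpf6 row (chr2:181604283-181604857), in a spliceosome gene, had 2.65, 8.35 and 4.51 CPM at E11.5, 1.25, 1.74 and 1.66 at E13.5, 1.22, 2.33 and 0.668 at E15.5, and 8.56, 10.5 and 19.6 at E17.5. Its E17.5 libraries lay above all others, with a log2 change of 3.20 ± 0.51 against E15.5 (edgeR adjusted p = 0.000252). The Sgf29 row at E17.5 stayed below its E11.5 level.

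Of 90 genes of neuronal adhesion, axon guidance and synapse, 3 have a member and 2 of these were tested. Both were higher at E17.5 than at E11.5, where 25.9% of all gene rows were called higher. The Cdh8 row (chr8:99110672-99111282), in a cadherin gene, had 32.7, 42.1 and 31.9 CPM at E17.5 and 11.8, 12.5 and 8.64 CPM at E11.5, with a log2 change of 1.69 ± 0.38 (edgeR adjusted p = 0.000802). The Ctnnd2 row (chr15:30185660-30186064), in the gene of delta-catenin, had 4.03, 3.98 and 4.08 CPM at E17.5 and 0.884, 1.14 and 0.751 CPM at E11.5, with a log2 change of 2.10 ± 0.56 (edgeR adjusted p = 0.00334). None of the libraries of these stages overlapped, which held for 57% of all gene rows tested. Of 72 genes of splicing factors and other RNA-binding proteins, 0 have a member.

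The abundant row of Grm8, across from an intergenic row, rose as well. The Grm8 row (chr6:27433191-27433595), in the gene of a metabotropic glutamate receptor, had 50.4, 44.4 and 47.0 CPM at E11.5, 142, 82.7 and 255 at E13.5, 115, 95.8 and 170 at E15.5, and 517, 192 and 789 at E17.5. Its libraries spread widely at E17.5, and the log2 change against E11.5 was 3.40 ± 0.49 (edgeR adjusted p = 6.49e-06).

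**Figure D5:**
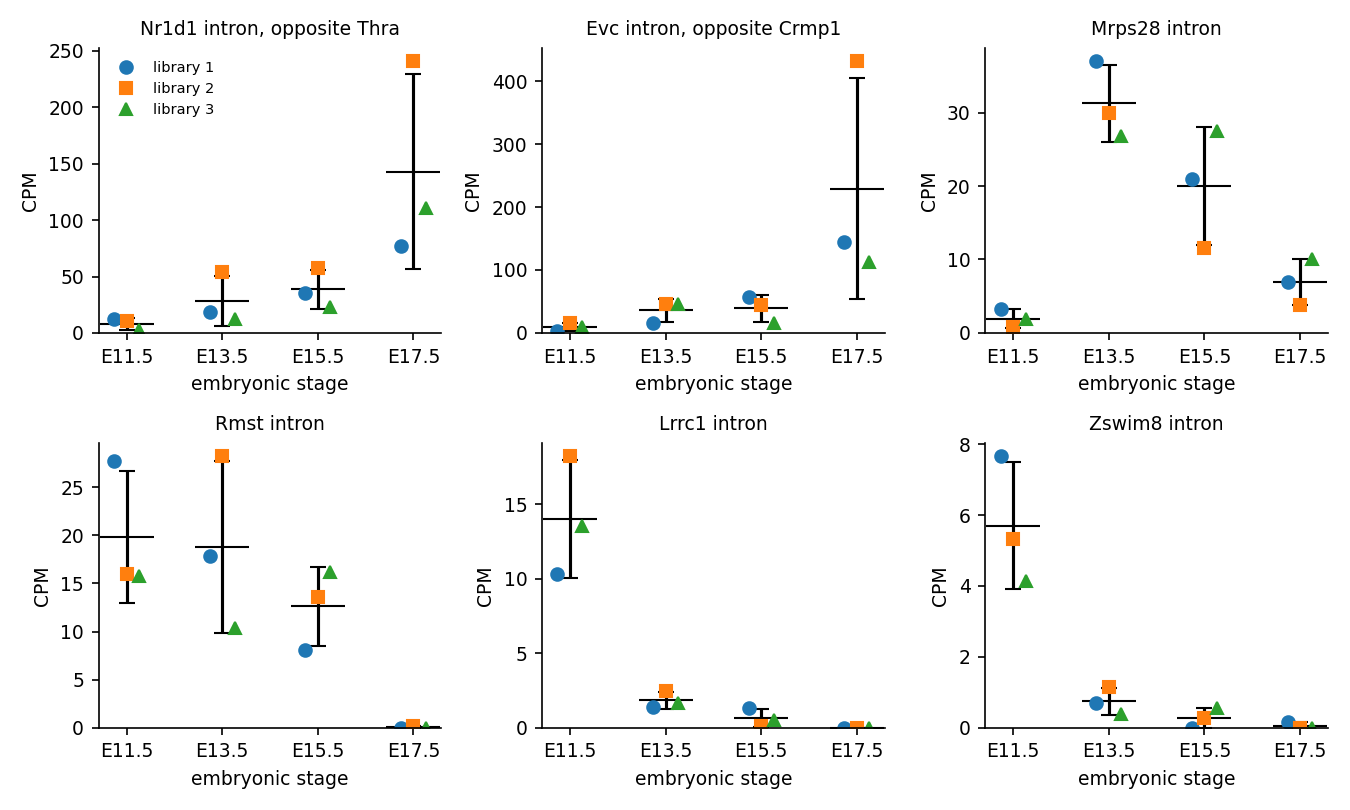
CPM per library by stage for the intron rows of Nr1d1, Evc, Mrps28, Rmst, Lrrc1 and Zswim8, each in its own panel. Points are libraries and black bars the mean ± SD (n = 3). Nr1d1 and Evc are highest at E17.5 and Mrps28 at E13.5, and Rmst, Lrrc1 and Zswim8 are at or near 0 at E17.5.

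A last set of members varied widely between libraries of the same stage. The table has 12 intron rows without a gene symbol in chr9:3000877-3036238, and their summed level was 1139, 3226 and 4996 CPM at E11.5, 137, 173 and 5837 at E13.5, 81.9, 539 and 640 at E15.5, and 7681, 1226 and 15114 at E17.5. Replicate 3 of E13.5 and replicates 1 and 3 of E17.5 were the highest. Spearman's rho over the 12 libraries with this sum was above 0.9 for 8 members, picked for this likeness after the values were seen. They lie in Ank1, Gm33838, Cdk5rap2, Chl1, Gm21738, Mdga2, 2210408I21Rik and Gm11168. The Gm11168 row (chr9:3005848-3005992) lies within that same interval, so it is not a separate place that shares the pattern. The Ank1 row (chr8:23095562-23095996) had 19.4, 58.8 and 77.4 CPM at E11.5, 2.09, 2.89 and 91.4 at E13.5, 0, 8.09 and 12.2 at E15.5, and 113, 9.04 and 229 at E17.5. Its lowest and highest libraries at E13.5 and at E17.5 were the same replicates as in the sum.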

How the data were processed

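STAU2 immunoprecipitations (12 libraries, 3 per stage) were analysed. The authors deposited whole-number counts per merged peak and strand, and a peak score per peak. HOMER 4.10 and the builds GRCm38 and mm10 are named in the submitters' processing notes. Aligner, counting tool, peak settings and the treatment of reads with several mapped places are not given in the sources used. Per the labels' protocols, ribosomal RNA was removed and the library kit marks the strand. Each count column carries a stage and a number that fit an immunoprecipitation and an input alike. The columns were taken as immunoprecipitations, since the rows are peaks, and all results depend on this.

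Counts of the 14297 gene rows were scaled with TMM and tested in edgeR 4.0.16 (R 4.3.3, limma 3.58.1) by quasi-likelihood F test after filterByExpr (14106 rows), with 4 stages in 1 fit, no replicate block and Benjamini-Hochberg adjustment at 0.05. The common biological coefficient of variation was 0.342. diffSpliceDGE tested a row against other rows of its gene, and, added after seeing the data, against the opposite strand of its peak. Its difference is the change of a row less that of the whole gene or peak, the row included. The fits were tested on simulated data. Intervals of count ratios are exact at 95%, and floors are 3 counts over a stage. Both cover counting error only. GENCODE vM21 gave exons, gene types and sequences. Peaks and exons counted as overlapping from 1 base.

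The members and gene lists were chosen with earlier results of these data known. Named rows are the very high rows, and for each pair of stages the 10 largest rises and falls among called rows whose libraries did not overlap, skipping unnamed gene models. To these the rule adds 4 rows per gene list or annotation class, 10 against their own gene and the 6 most abundant after the very high rows. A few others are marked in the text as chosen afterwards. Alternatives were scaling by totals, DESeq2 1.42.0, no filter, a replicate block, rows with a peak score at or above the median, other limits for a very high row, and leaving out libraries. The labels do not say whether replicates come from separate animals, so p-values measure the spread between these libraries, which may be technical. Input libraries were not analysed here. Rows without a gene ID were left out of the fit of the gene rows, and the 12 intron rows on chromosome 9 are given as levels only. Values of some named rows are not reported here.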

Additional observations from a re-analysis of the deposited data

How the results depend on the processing

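Under scaling by the gene-row total the members called at E13.5 against E11.5 numbered 187 (107 with TMM), and those at E15.5 against E13.5 numbered 0 (3 with TMM). The share of all gene rows called under that scaling was not worked out. With rows at or above the median peak score, fewer rows were tested and the counts were 49, 20 and 117 (E13.5 against E11.5, E17.5 against E15.5 and E17.5 against E11.5; 107, 44 and 230 with all rows) and 106 by the F test (217). Without the 4 libraries numbered 2, an alternative added after seeing the data, 11 were called at E15.5 against E13.5. With DESeq2, without a filter, and without the very high rows, every count of members called stayed within 1.5 times. Leaving out 1 library at a time gave 76 to 120, 0 to 3, 22 to 47 and 210 to 248 in the 4 comparisons, 191 to 245 by the F test, and 6 to 13 (E13.5 against E11.5) and 28 to 36 (E17.5 against E11.5) against the other rows of the gene. The excess of the other intron rows' share at E11.5 was 1.24 to 3.11 percentage points with 1 library left out, and 0.888 points with an exact permutation p of 0.0913 where very high began at 0.3%. The excess of the very high rows was 30.4 to 34.3 points with 1 library left out. For named rows, 92 values were tried under 1778 alternatives in all. Of these, 1693 kept the call, 85 lost it and 0 reversed, and the losses fell on 26 values. Where a replicate block was added, 67 were called at E17.5 against E15.5 (44 without), where 16.5% of all gene rows were, and 19 at E13.5 against E11.5 against the other rows of the gene (11 without), where 0.446% of all rows were. The other comparisons, from E13.5 against E11.5 on, had 146, 4 and 259 members called, where 20.6%, 0.532% and 54.4% of all gene rows were. Same-numbered libraries had correlations of deviations from -0.181 to 0.517 over all gene rows. Over the members alone they ran from 0.209 to 0.664 for number 2, 0.105 to 0.329 for number 3 and -0.081 to 0.221 for number 1. Not every pair was above 0.1. Over all gene rows, 3 of the 12 libraries correlated best with their own number in every other stage, so the numbers were not taken as pairs. That count was not made over the members alone. With the block, antisense rows at E13.5 against E11.5 had 34 higher and 15 lower (16 and 6 without). Against the opposite strand the block gave 1, 0, 0 and 5 calls (0 in each without it). Low counts limit the members: 76 were not tested, and rows near 0 at a stage have only bounds or wide intervals. Apart from the smaller number of rows or libraries, the cause of these differences was not tested.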
